A study of Mus musculus with 18 samples.

Results

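Transforming growth factor beta (TGF-beta) signalling was described here through 10 genes, chosen by symbol: the ligands Tgfb1, Tgfb2 and Tgfb3, the receptors Tgfbr1 and Tgfbr2, the mediators Smad2 and Smad3, the inhibitory Smad7, and the integrin subunits Itgav and Itgb8. All 10 were among the 36172 genes listed in the deposited matrix, and all 10 passed the filter on low counts, which 14803 genes passed. The libraries came from brains of Cx3cr1-cre/ERT2+; NuTRAP+ mice, 3 months old, in which tamoxifen (Tam) given 3 to 4 weeks before treatment switched on an EGFP-tagged ribosomal protein. Cre was driven from the Cx3cr1 locus, so the tag marks microglia and any other cell that expressed Cx3cr1 and was still present, such as macrophages at the borders of the brain. The wait after Tam was meant to leave out circulating monocytes, which turn over quickly. Mice were injected once with lipopolysaccharide (LPS, a bacterial cell wall component) at 5 mg/kg or with phosphate-buffered saline (PBS), and a half-brain was taken 24 h later. All mice carried both transgenes and had received Tam. Translating ribosome affinity purification (TRAP) gave, from each animal, an input library and a positive library of RNA on tagged ribosomes. The input was supernatant of the spun homogenate, saved before the tagged ribosomes were captured.

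There were 9 animals, and the libraries used numbered 4 in Input PBS, Input LPS and Positive PBS and 5 in Positive LPS. The input library of animal 271 held 1250 counts and was left out. The other 17 libraries held between 22968834 and 35123335 counts. Microglia markers summed to between 152173 and 171934 normalised counts in Positive PBS and between 7093 and 9734 in Input PBS, and all 8 were called higher in the positive fraction. Neuron markers were not depleted by the pulldown, at 217766 to 251626 summed counts in Positive PBS against 208659 to 218682 in Input PBS with 3 of 8 called higher and 0 lower, and neither were astrocyte markers as a list, of which 1 of 8 was called higher and 3 lower. Oligodendrocyte markers were lower in the positive fraction, 6 of 6. The positive fraction thus still held RNA of genes that untagged cells express.

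TGF-beta ligands are made as latent dimers, held in a complex with their own propeptide. Integrins that pair the alpha V subunit with a beta subunit such as beta 8 can free the ligand, which then joins the type II receptor (Tgfbr2) to the type I receptor (Tgfbr1), and the type I receptor phosphorylates Smad2 and Smad3. In the brain this pathway is known for sustaining the homeostatic gene programme of microglia, and Smad7 is a feedback inhibitor that the pathway itself induces.

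The comparison of positive fraction with input in PBS animals asked which genes of the pathway were carried by tagged ribosomes at baseline. Tgfb1 and both receptors were far higher in the positive fraction, by 11.6-fold for Tgfb1, 11.1-fold for Tgfbr1 and 6.40-fold for Tgfbr2. Tgfb3 and Itgb8 were lower, and the other 5 genes were not called. Calls needed an adjusted p (Benjamini-Hochberg, over all 14803 genes, edgeR's quasi-likelihood test) under 0.05 and a log2 change over 0.32 either way. By this rule 3 of 10 members were higher and 2 lower, and among all genes tested 21.0% were higher and 18.8% lower. Of all calls 52.8% were higher in the positive fraction, and 37.6% with size factors from all 18 libraries, which moved the median of all genes by more than 0.1 but no call of a member. The median log2 difference was 0.07 over the 10 members and close to 0 over all genes (-0.00088). Where LPS and PBS animals are compared below, a lower level in these bulk samples can mean fewer cells of a type or less RNA per cell. The values cannot tell these apart.

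Tgfb1 encodes the ligand that microglia are known to make themselves. It lies on the plus strand of chromosome 7, at chr7:25687002-25704996 in the mm10 build. Its normalised counts were 169, 206, 169 and 195 in the Input PBS libraries of animals 268, 272, 273 and 506, and 2216, 2075, 2050 and 2266 in their positive libraries. The groups were far apart, with the lowest positive library at 2050 and the highest input library at 206. The log2 difference was 3.54 ± 0.13 (SE, edgeR adjusted p = 2.56e-13).

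Tgfbr1 (chr4:47353305-47414924, plus strand) encodes the type I receptor kinase. In the same order of animals it stood at 896, 949, 887 and 959 normalised counts in Input PBS and at 11199, 9538, 8764 and 11602 in Positive PBS. The lowest positive library was above the highest input library by a wide margin. The log2 difference was 3.48 ± 0.23 (SE, edgeR adjusted p = 6.14e-10). Tgfbr2 (chr9:116087695-116175363, minus strand), the type II receptor that binds ligand first, stood at 524, 613, 555 and 551 in Input PBS and at 3556, 3941, 3381 and 3479 in Positive PBS. Its log2 difference was 2.68 ± 0.09 (SE, edgeR adjusted p = 1.25e-13), with no overlap between groups. Endothelial markers were higher in the positive fraction as well, with 7 of 7 called higher and sums of 11132 to 14727 counts against 4893 to 6235 in Input PBS. Monocyte and border macrophage markers were higher too (6 of 7 called higher, 1 lower). The part of such cells in the receptor values was not tested.

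Because these 3 genes were carried together by the tagged ribosomes, the 250 bases before each of their RefSeq starts (GRCm38.p6, the mm10 assembly) are shown, 5′ to 3′ on the strand of the gene. The table of RefSeq promoters held entries for 7 of the 10 members, and Tgfbr1 has 2 entries, the second of which lies inside the gene. Capitals mark matches on either strand to GGGCGG (the GC box bound by Sp family factors), CAGAC (a short motif bound by Smad proteins) and GAGGAA (the purine-rich core bound by PU.1, a factor that shapes microglia). No match overlapped another.
Tgfb1, chr7:25686752-25687001, plus strand: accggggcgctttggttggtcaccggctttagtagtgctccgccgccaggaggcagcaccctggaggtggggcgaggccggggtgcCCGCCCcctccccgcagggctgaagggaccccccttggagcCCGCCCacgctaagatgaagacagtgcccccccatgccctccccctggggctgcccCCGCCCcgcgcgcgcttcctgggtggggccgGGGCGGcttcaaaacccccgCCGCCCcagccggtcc
Tgfbr1, first start, chr4:47352972-47353221, plus strand: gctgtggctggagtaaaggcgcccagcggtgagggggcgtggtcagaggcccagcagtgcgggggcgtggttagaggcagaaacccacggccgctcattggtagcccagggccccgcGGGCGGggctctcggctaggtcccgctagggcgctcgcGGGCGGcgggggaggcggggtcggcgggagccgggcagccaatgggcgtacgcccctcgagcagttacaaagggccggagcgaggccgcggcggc
Tgfbr1, second start, chr4:47385966-47386215, plus strand: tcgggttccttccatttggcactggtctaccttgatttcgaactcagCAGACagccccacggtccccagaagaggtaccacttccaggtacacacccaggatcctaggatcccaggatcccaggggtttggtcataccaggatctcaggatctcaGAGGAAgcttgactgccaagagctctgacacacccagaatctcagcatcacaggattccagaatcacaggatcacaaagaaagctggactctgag
Tgfbr2, chr9:116175364-116175613, minus strand: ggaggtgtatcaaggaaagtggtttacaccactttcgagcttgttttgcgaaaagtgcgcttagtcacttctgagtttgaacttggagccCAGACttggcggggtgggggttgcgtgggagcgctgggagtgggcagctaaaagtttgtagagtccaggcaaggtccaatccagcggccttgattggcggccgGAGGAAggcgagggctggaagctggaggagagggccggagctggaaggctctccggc
Tgfb1 held 5 GC boxes and the first Tgfbr1 window 2, and neither held CAGAC or GAGGAA. The second Tgfbr1 window and the Tgfbr2 window each held 1 CAGAC and 1 GAGGAA and no GC box. Members not called higher in the positive fraction held these motifs too. The Tgfb2 window held 2 CAGAC and 1 GAGGAA, that of Itgav 2 GAGGAA, that of Itgb8 1 CAGAC and that of Smad3 2 GC boxes. Of all 32851 windows of this length in the table, 32.7% held a GC box, 42.2% CAGAC and 23.3% GAGGAA, so each motif is common. The GC content was 75.2% for Tgfb1, 74.8% and 52.8% for the Tgfbr1 windows and 58.4% for Tgfbr2, against a median of 52.4% over all windows.

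Tgfb2 and Tgfb3 encode the other ligands, which are known mainly from neurons, astrocytes and vessels. Tgfb3 (chr12:86056743-86079041, minus strand) stood between 653 and 806 normalised counts in Input PBS and between 398 and 520 in Positive PBS. It was lower in the positive fraction by 1.51-fold (edgeR adjusted p = 0.00429), with no overlap. Tgfb2 (chr1:186623186-186705992, minus strand) stood between 365 and 518 in Input PBS and between 352 and 526 in Positive PBS, and the groups overlapped. Its log2 difference was 0.09 ± 0.15 (SE, edgeR adjusted p = 0.655, 95% interval -0.23 to 0.40).

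Set against exon length, the make-up of the ligands differed between fractions. Tgfb1 took 22.4% ± 2.00 of the 3 ligands' counts per kb of exon in Input PBS (SD, n = 4) and 81.2% ± 1.58 in Positive PBS (SD, n = 4). In Input PBS Tgfb3 took the most, at 55.2% ± 4.58 (SD, n = 4), and in Positive PBS it took 11.4% ± 1.04 (SD, n = 4). Tgfb2 took 22.4% ± 2.75 and 7.41% ± 1.32 (SD, n = 4 each). After LPS the share of Tgfb1 was 29.5% ± 0.570 in input (SD, n = 4) and 85.8% ± 1.71 in the positive fraction (SD, n = 5). These shares are taken within each library, so library scaling does not enter them, and they are given as a description.

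Itgav and Itgb8 form the integrin alpha V beta 8, known from astrocytes and neural progenitors as an activator of latent ligand. Itgb8 (chr12:119162803-119238276, minus strand) stood at 527, 336, 370 and 697 normalised counts in Input PBS (animals 268, 272, 273 and 506) and at 259, 194, 166 and 308 in the positive libraries of the same animals. The group ranges did not overlap, and in each of the 4 animals the positive library was the lower one. Itgb8 was 2.08-fold lower in the positive fraction (edgeR adjusted p = 0.000742). The variation among animals was shared by both fractions, with animal 506 highest and animals 272 and 273 lowest in each.

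Itgav (chr2:83724397-83806916, plus strand) is the alpha subunit shared by several such integrins. It lay between 2641 and 3115 in Input PBS and between 1928 and 3018 in Positive PBS, and its log2 difference of -0.24 ± 0.14 (SE, edgeR adjusted p = 0.162) was not called. The spread among positive libraries was wide, and without the Positive PBS library of animal 506 the difference was -0.36 and passed the threshold (edgeR adjusted p = 0.0452). The deposited log2 values, scaled over all 18 libraries, gave -0.39 (limma adjusted p = 0.0452).

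The Smads, which every responding cell uses, differed little between fractions. Smad2 (chr18:76241701-76311747, plus strand) lay between 1089 and 1147 normalised counts in Input PBS and between 1214 and 1415 in Positive PBS. The groups did not overlap and the adjusted p was 0.0167 in edgeR, but the difference of 1.19-fold was below the fold threshold, so it was not called. Smad3 (chr9:63646767-63757994, minus strand) lay between 1813 and 2613 in Input PBS and between 2192 and 2374 in Positive PBS, with a log2 difference of 0.05 (95% interval -0.17 to 0.26). Smad7 (chr18:75367365-75395934, plus strand) lay between 992 and 1210 and between 895 and 1149, with a log2 difference of -0.05 (95% interval -0.34 to 0.23). Summed counts of neuron and astrocyte markers were not lower in Positive PBS than in Input PBS, though 3 of 8 astrocyte markers were called lower and 1 higher. The part of untagged cells in the Smad values was not tested.

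**Figure D1:**
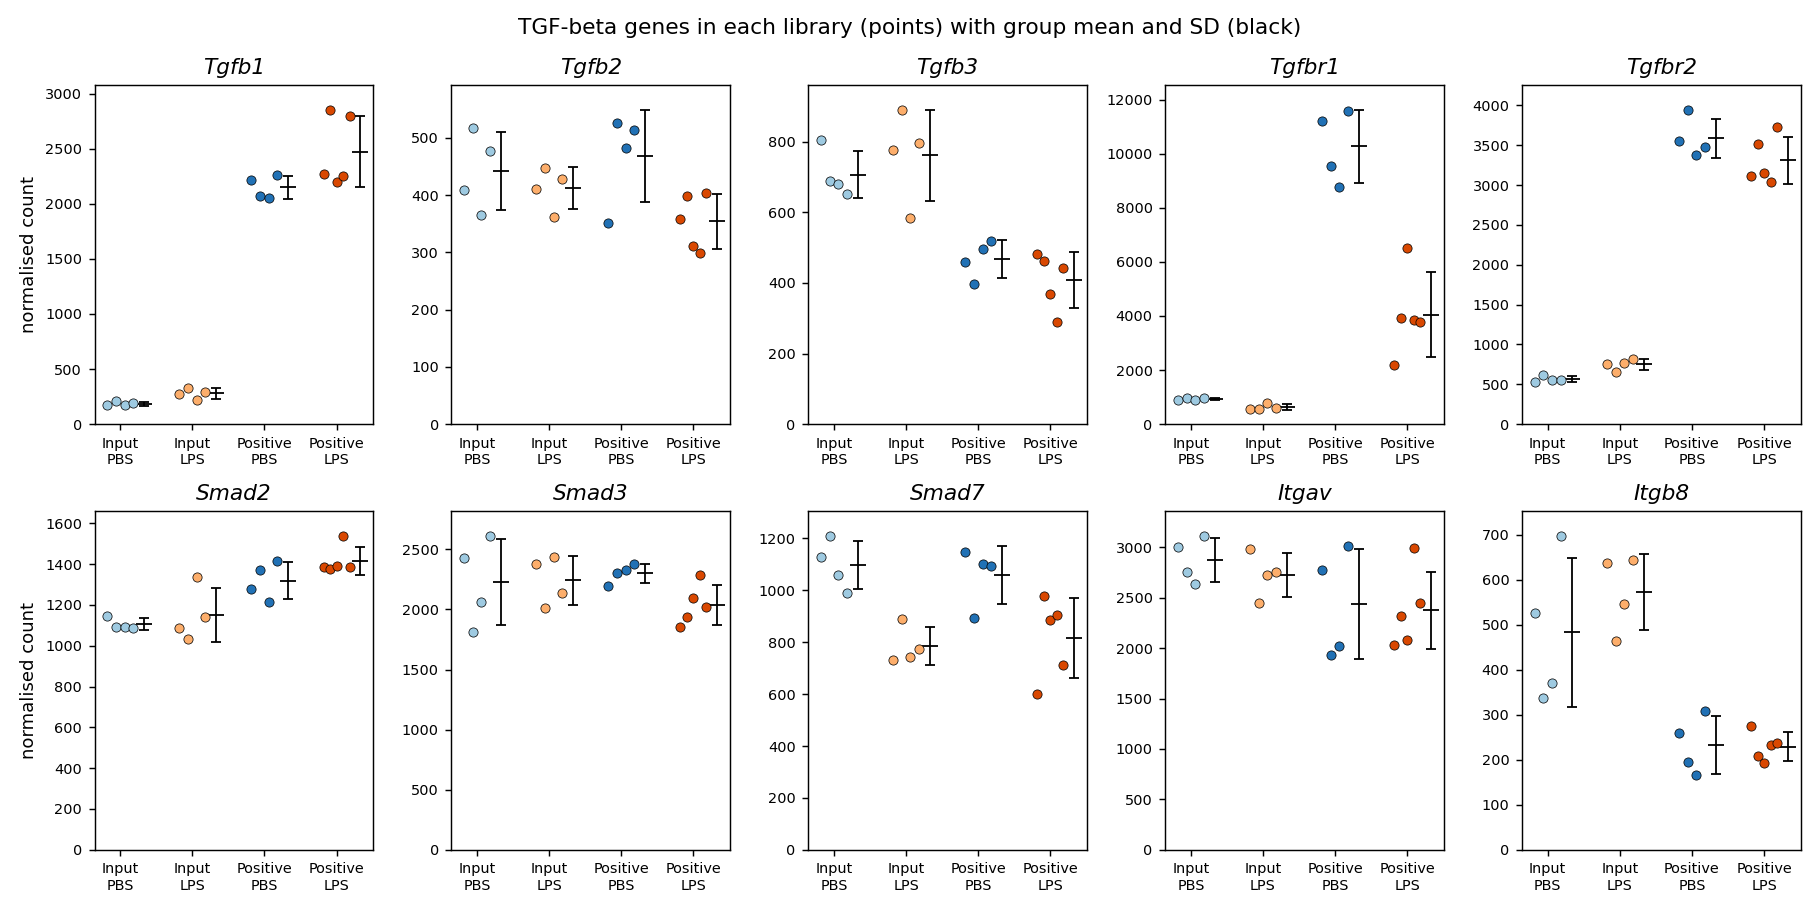
Normalised counts (y axes, from 0) of the 10 genes in each of the 17 libraries, with a point per library and the group mean and SD in black. Tgfb1, Tgfbr1 and Tgfbr2 stand far higher in both positive groups than in input, Tgfb3 and Itgb8 stand lower, and Tgfbr1 in Positive LPS lies between 2199 and 6531, below the 8764 to 11602 of Positive PBS.

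Levels per kb of exon (the union of GENCODE exons) put the genes in another order in the 2 fractions. In Input PBS Smad3 and Itgav stood highest, at 438 ± 70.5 and 408 ± 31.0 normalised counts per kb (SD, n = 4 each), and these neighbours did not differ beyond their spread. Smad7 followed at 251 ± 21.4, Tgfb3 at 209 ± 19.9, Tgfbr1 at 144 ± 5.72 and Smad2 at 129 ± 3.26 (SD, n = 4 each). Tgfb1 and Tgfb2 stood at 85.0 ± 8.75 and 85.0 ± 13.2 per kb, within their spread of each other, and Tgfbr2 at 68.5 ± 4.58 and Itgb8 at 57.4 ± 19.7 per kb came last (SD, n = 4 each). In Positive PBS Tgfbr1 stood first at 1602 ± 210 per kb, then Tgfb1 at 989 ± 48.6, and Smad3 and Tgfbr2 lay within their spread of each other at 452 ± 15.3 and 438 ± 30.0 (SD, n = 4 each). Itgb8 was last at 27.6 ± 7.64 per kb (SD, n = 4). With LPS the positive fraction had Tgfb1 first, at 1138 ± 148 per kb, whereas Tgfbr1 at 632 ± 243, Tgfbr2 at 404 ± 36.4 and Smad3 at 400 ± 32.6 lay within their spread of one another (SD, n = 5 each).

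In LPS animals Tgfb1 and both receptors were again higher in the positive fraction and Tgfb3 and Itgb8 lower. By the same rule 3 of 10 members were higher and 2 lower, against 27.6% and 25.8% of all genes tested. Tgfb1 was 8.90-fold, Tgfbr1 6.47-fold and Tgfbr2 4.42-fold higher (edgeR adjusted p = 4.16e-13, 7.15e-09 and 6.25e-13). Tgfb3 was 1.86-fold and Itgb8 2.51-fold lower (edgeR adjusted p = 4.03e-05 and 2.42e-05). Smad2 stood at 1033 to 1337 in Input LPS and 1378 to 1538 in Positive LPS, a difference of 1.23-fold that again stayed under the fold threshold. The PBS and LPS comparisons use different libraries of different animals.

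**Figure D2:**
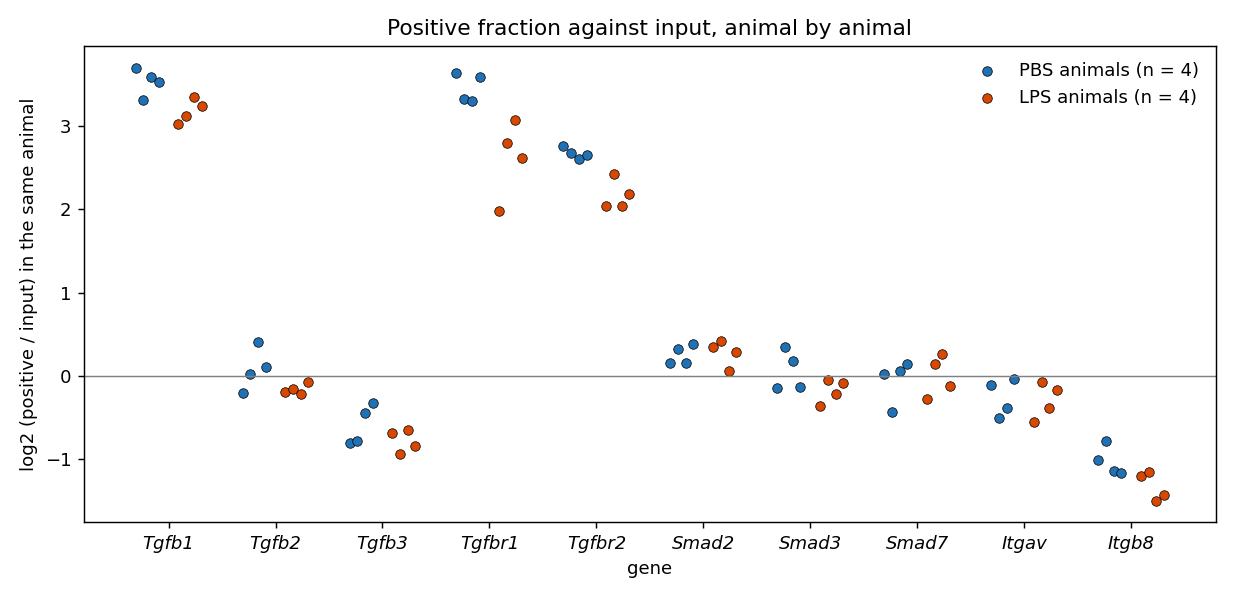
Log2 ratio of positive to input (y axis, normalised counts plus 1) for each of the 10 genes (x axis), with a point for each of the 4 PBS and 4 LPS animals that have both libraries. Tgfb1 lies between 3.32 and 3.71 in PBS and between 3.03 and 3.35 in LPS animals, Tgfbr2 between 2.61 and 2.76 and between 2.04 and 2.43, and Itgb8 is below 0 in all 8 animals.

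The LPS effect in the positive fraction asked how the pathway stood in tagged cells 24 h after an immune challenge. Tgfbr1 fell by 1.34 on the log2 scale, a level 2.53-fold lower. Tgfb2 and Smad7 fell by smaller amounts, and no member was called higher. With 3 of 10 members called lower and 0 higher, the background was 14.9% of all genes called lower and 19.0% called higher. For the members called higher, 0 of 10, limma with a trend, DESeq2 and the other alternatives gave the same count. In the main edgeR fit 0 members were higher at an unadjusted p under 0.05. That unadjusted count was 1 with the replicate block, with sex as a covariate and with all 18 libraries. It was also 1 without the Input LPS or the Positive LPS library of animal 270. The median log2 change was -0.15 over the 10 members and 0.01 over all genes.

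Tgfbr1 stood at 11199, 9538, 8764 and 11602 normalised counts in the Positive PBS libraries named above and at 2199, 3923, 6531, 3853 and 3766 in the Positive LPS libraries of animals 266, 267, 270, 271 and 507. Each LPS library was below each PBS library, the library of animal 270 stood highest among them and that of animal 266 lowest. The mean fell from 10276 ± 1347 (SD, n = 4) to 4054 ± 1558 (SD, n = 5). The log2 fold change was -1.34 ± 0.20 (SE, edgeR adjusted p = 3.41e-05), and under all 28 alternatives it stayed called, between -1.58 and -1.18. Microglia markers did not fall as a list: 2 of 8 rose, 1 fell (Trem2, by 1.71 on the log2 scale), and they summed to between 153668 and 201784 in Positive LPS. Cx3cr1 itself, whose locus drives Cre, had a log2 change of -0.20 ± 0.19 (SE, edgeR adjusted p = 0.411). This value does not measure expression of the tag.

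Tgfbr2 did not follow its partner in the positive fraction. Its libraries read 3110, 3518, 3153, 3037 and 3726 after LPS, within or near the 3381 to 3941 of Positive PBS, and the groups overlapped. The log2 change was -0.12 ± 0.08 (SE, edgeR adjusted p = 0.258, 95% interval -0.29 to 0.06). The ratio of the receptors, Tgfbr1 per kb over Tgfbr2 per kb, was 4.02, 3.09, 3.31 and 4.26 in Positive PBS and 0.903, 1.42, 2.64, 1.62 and 1.29 in Positive LPS. In input the ratio lay between 1.98 and 2.22 with PBS and between 0.940 and 1.30 with LPS. The ranges of PBS and LPS did not overlap in either fraction, and this ratio is taken within each library.

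**Figure D3:**
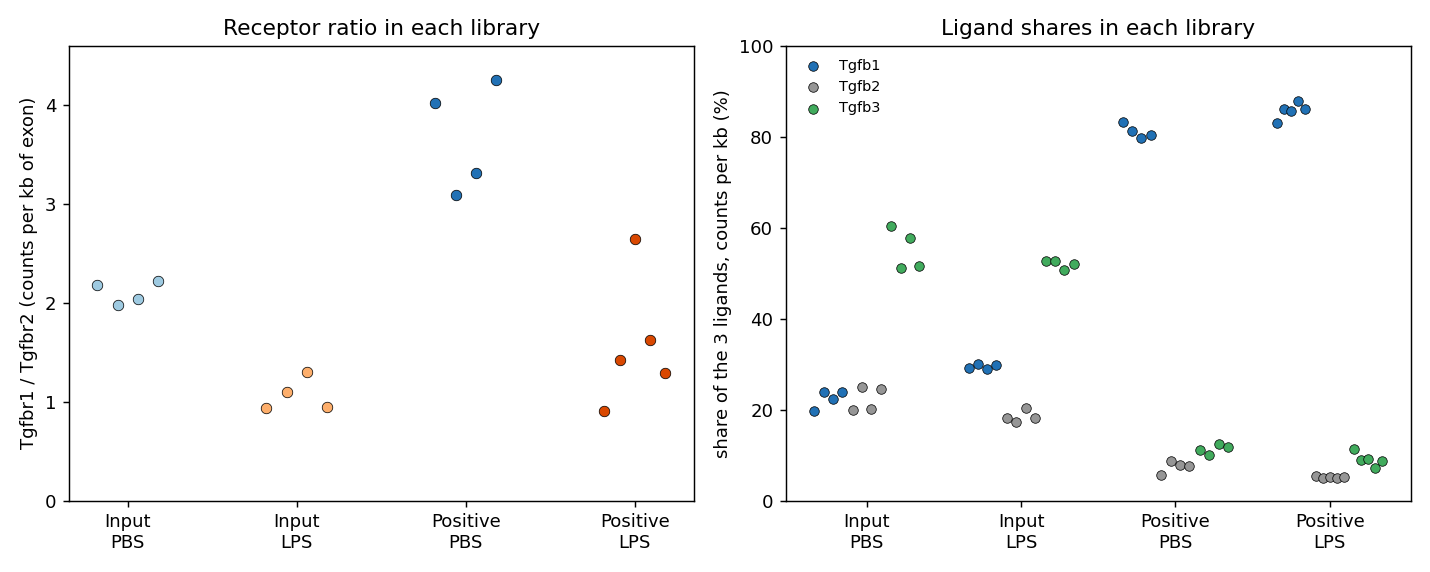
Left, the ratio of Tgfbr1 to Tgfbr2 (y axis, counts per kb of exon) in each library of the 4 groups. Right, the share of each ligand in the sum of the 3 ligands per kb (y axis, percent) in each library. The ratio lies at or above 1.98 in all PBS libraries and between 0.903 and 2.64 in LPS libraries, and Tgfb1 takes 79.7% to 87.9% of ligand counts in the positive libraries.

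Smad7 stood at 1149, 895, 1101 and 1093 normalised counts in Positive PBS and at 600, 978, 886, 903 and 712 in Positive LPS. The groups overlapped through the PBS library of animal 272, which read 895. Its log2 fold change was -0.38 ± 0.12 (SE, edgeR adjusted p = 0.0226). Tgfb2 stood at 352, 526, 483 and 513 in Positive PBS and at 359, 398, 312, 299 and 404 in Positive LPS, and here the PBS library of animal 268 lay among the LPS values. Its log2 fold change was -0.40 ± 0.14 (SE, edgeR adjusted p = 0.0269). Both calls were near the threshold: without the Positive PBS library of animal 273 or 506, or without animals 506 and 507, 1 of 10 members was called, which was Tgfbr1. Leaving out 1 library ended the Tgfb2 call in 5 cases (animals 270 and 271 of Positive LPS and 272, 273 and 506 of Positive PBS, adjusted p up to 0.0909, beside 0.0705 with size factors from all 18 libraries and 0.0674 in the deposited log2 values) and the Smad7 call in 5 (animals 266 and 507 of Positive LPS and 268, 273 and 506 of Positive PBS, adjusted p up to 0.0627). Neuron markers were lower in Positive LPS as well, with 4 of 8 called lower and sums of 163044 to 226459 counts against 217766 to 251626, and 3 of 7 endothelial markers were called lower and 1 higher (8705 to 13754 summed counts against 11132 to 14727). Of 8 astrocyte markers 1 was called higher and 1 lower, and 2 of 6 oligodendrocyte markers were called lower. The part of these cell types in the falls of Tgfb2 and Smad7 was not tested.

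Tgfb1 read 2270, 2853, 2197, 2257 and 2800 in Positive LPS against 2050 to 2266 in Positive PBS, with a log2 change of 0.20 ± 0.11 (SE, edgeR adjusted p = 0.149, 95% interval -0.03 to 0.44). Animals 267 and 507 stood well above the PBS libraries, that of animal 266 was level with the highest of them, and the other 2 lay within their range. Tgfb3 lay between 288 and 483 in Positive LPS and its change of -0.19 ± 0.15 was not called (SE, edgeR adjusted p = 0.306). The 95% intervals of the log2 change were -0.07 to 0.27 for Smad2, -0.38 to 0.03 for Smad3, -0.32 to 0.25 for Itgav and -0.48 to 0.44 for Itgb8, and so lay within 1.5-fold either way.

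The LPS effect in input asked the same of the half-brain supernatant before capture of tagged ribosomes. Tgfb1 rose by 0.59 and Tgfbr2 by 0.42 on the log2 scale, and Smad7 fell by 0.48. Thus 2 of 10 members were called higher and 1 lower, beside 7.16% of all genes called higher and 5.26% lower. The median log2 change was 0.03 over the 10 members and 0.0036 over all genes.

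Tgfb1 read 169, 206, 169 and 195 normalised counts in Input PBS and 276, 327, 214 and 295 in the Input LPS libraries of animals 266, 267, 270 and 507. Each LPS library was above each PBS library, that of animal 270 by the least. The log2 fold change was 0.59 ± 0.13 (SE, edgeR adjusted p = 0.00363). Beside this, neutrophil markers, of which 5 of 9 could be tested, rose 5 of 5 in input and summed to between 160 and 499 counts in Input PBS and between 483 and 1376 in Input LPS, none of the 9 listed at 0 throughout. Microglia markers summed to between 8766 and 12216 in Input LPS, overlapping the 7093 to 9734 of Input PBS. Of these 8 markers 2 were called higher and 1 lower, with a median log2 change of 0.29. Their part in the rise of Tgfb1 was not tested.

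Tgfbr2 read 524, 613, 555 and 551 in Input PBS and 757, 652, 764 and 818 in Input LPS, without overlap. Its log2 fold change was 0.42 ± 0.09 (SE, edgeR adjusted p = 0.0034). Endothelial markers summed to between 4893 and 6235 counts in Input PBS and between 6239 and 8232 in Input LPS. Of these 7 markers 2 were called higher and 1 lower, and their part in the rise of Tgfbr2 was not tested. Smad7 read 1129, 1210, 1060 and 992 in Input PBS and 731, 890, 741 and 776 in Input LPS, also without overlap. Its log2 fold change was -0.48 ± 0.13 (SE, edgeR adjusted p = 0.0184), and the call was lost without the Input LPS library of animal 266 or 270 or the Input PBS library of animal 272 (adjusted p up to 0.0595), and without animals 506 and 507 (0.0722). Oligodendrocyte markers fell in input too, 6 of 6. Of 8 neuron markers 0 were called there, and of 8 astrocyte markers 2 were called higher and 1 lower. The part of these cell types in the fall of Smad7 was not tested.

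Tgfbr1 in input read 896, 949, 887 and 959 with PBS and 558, 561, 776 and 610 with LPS. All LPS libraries were below all PBS libraries, yet the log2 change of -0.56 ± 0.21 was not called (SE, edgeR adjusted p = 0.0928), in a model that shares its spread with the positive libraries. DESeq2 gave -0.56 with an adjusted p of 0.0481, and edgeR on the input libraries alone gave -0.57 with an adjusted p of 0.0043. Without the Positive LPS library of animal 266 or 270, which vary most for this gene, it was called as well (adjusted p = 0.0243 and 0.0214). Tgfb2, Tgfb3, Smad2, Smad3, Itgav and Itgb8 were not called in input, with log2 changes between -0.10 and 0.25.

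**Figure D4:**
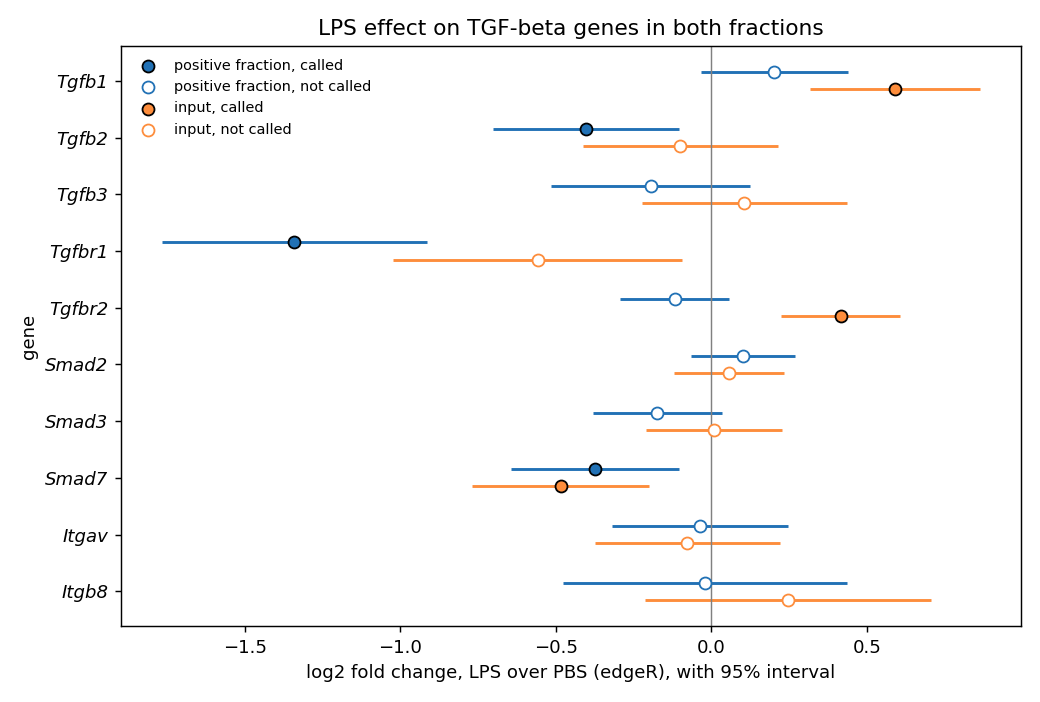
Log2 fold change of LPS over PBS (x axis, edgeR, with 95% interval) for the 10 genes (y axis) in the positive fraction and in input, with filled points for called genes. Tgfbr1 in the positive fraction lies farthest from 0 at -1.34, and Tgfb1 (0.59) and Tgfbr2 (0.42) are the members that rose in input.

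Whether the LPS effect differed between fractions was tested as an interaction, for which 5.46% of all genes were called higher (the LPS effect more positive in the positive fraction) and 1.42% lower. Tgfbr2 was the 1 member of 10 called, and it was called lower: the log2 LPS effect in the positive fraction minus that in input was -0.53 ± 0.12 (SE, edgeR adjusted p = 0.0099). The call was lost without animals 506 and 507 (-0.54, adjusted p = 0.0619). For Tgfbr1 the difference was -0.78 ± 0.29 (SE, edgeR adjusted p = 0.126). With the animal as a replicate block, a fit in which 8.90% of all genes were called higher and 4.03% lower, it was -0.84 and was called (edgeR adjusted p = 0.0076), and leaving out animal 270 of Positive LPS gave -1.02 (edgeR adjusted p = 0.00584). The differences for the other 8 members were not called, with estimates between -0.39 (Tgfb1, edgeR adjusted p = 0.199) and 0.11 (Smad7, edgeR adjusted p = 0.807).

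Beyond the 10 members, 73 other genes of the pathway were listed by role, and 69 of them were tested. In the positive fraction 12 rose and 21 fell after LPS, with a median log2 change of -0.07, where 19.0% of all genes were called higher and 14.9% lower. In input 15 rose and 12 fell, with a median of 0.02, where 7.16% of all genes were called higher and 5.26% lower. The share of these genes that rose in the positive fraction was thus close to the share of all genes. The share that fell there, and both shares in input, were above those of all genes. Of the 21 that fell in the positive fraction, 11 were the microglial identity genes described below, and of the 12 that fell in input 8 were. The same shares of all genes stand behind the counts of each role that follow, which are given as descriptions. Bmp2 and Bmpr2 are listed at 0 in all libraries and were left out by the filter with Itgb6 and Cdkn2b.

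Among the receptors, Eng (endoglin, an accessory receptor of vessel walls) rose in input from 398 to 620 mean normalised counts (log2 fold change 0.64 ± 0.14, SE), and Tgfbr3 (betaglycan, which presents ligand) from 542 to 754 (0.47 ± 0.12, SE). The call of Eng was lost without animals 506 and 507 (edgeR adjusted p = 0.0527). In the positive fraction neither was called, at -0.23 and 0.02, though Eng was called lower without the library of animal 267 (-0.34, edgeR adjusted p = 0.0301). The LPS effect on Eng differed between fractions by -0.87 ± 0.20 (SE, edgeR adjusted p = 0.00987), as with Tgfbr2, and the endothelial values given above stand beside it as well. Acvrl1, the other listed receptor, was not called in either LPS comparison. Between fractions in PBS animals, Eng was higher in the positive fraction, with a log2 difference of 2.29 ± 0.15 (SE, edgeR adjusted p = 4.71e-10). Acvrl1 was higher too (1.66 ± 0.26, SE), and Tgfbr3 was lower (-0.39 ± 0.12, SE).

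Of the genes that bring latent ligand to its activation, Mmp14, a membrane metalloprotease, rose in the positive fraction from a mean of 882 to 4914 counts (log2 fold change 2.48 ± 0.22, SE). Lrrc32, which tethers latent ligand to the cell surface, rose by 1.70 ± 0.34 and Furin, the protease that cleaves the propeptide, by 0.73 ± 0.11 (SE). Ltbp4, a latent TGF-beta binding protein of the matrix, fell by 1.45 (SE 0.16), from 1908 to 702 counts. Of the 9 genes of this role, 4 rose and 2 fell in the positive fraction, and 3 rose in input, where 7.16% of all genes were called higher. The input rise of Furin was lost without animals 506 and 507 and with any of 4 single libraries left out, Input LPS 266 and 270 and Input PBS 272 and 273 (edgeR adjusted p up to 0.115). The LPS effect differed between fractions for Mmp14 (1.89 ± 0.30, SE, edgeR adjusted p = 0.000753) and for Ltbp4 (-1.25 ± 0.23, SE, edgeR adjusted p = 0.00216).

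The beta integrin subunits that pair with alpha V moved apart in the positive fraction. Itgb3 rose from 629 to 1183 mean counts (0.91 ± 0.14, SE) and Itgb5 fell from 21706 to 12932 (by 0.75, SE 0.16), whereas Itgb8 and Itgav were not called. Neither Itgb3 nor Itgb5 was called in input, at 0.31 and -0.36, except Itgb3 with sex as a covariate (edgeR adjusted p = 0.0239) and Itgb5 in a fit of the input libraries alone (0.0215).

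Genes that restrain the pathway did not move as a group. Tgif1, a corepressor of Smad complexes, rose in both fractions, by 1.37 ± 0.19 in the positive fraction and 0.94 ± 0.23 in input (SE), the latter not called without animals 506 and 507 (edgeR adjusted p = 0.057). Tgif2 fell in the positive fraction by 0.51 (SE 0.14) and was at -0.03 in input. With Smad7, 1 of 6 genes of this role rose and 2 fell in the positive fraction, and 1 rose and 1 fell in input. Pmepa1, a Smad-binding feedback inhibitor and itself a known target of the pathway, was the 1 gene of 8 receptor and Smad regulators that was called, and fell in both fractions, by 0.68 (SE 0.09) from 4686 to 2921 counts in the positive fraction and by 0.39 (SE 0.10) in input. The input call was lost without animals 506 and 507 (edgeR adjusted p = 0.0664) and without the Input PBS library of animal 272, where the change of -0.32 was under the fold threshold.

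General target genes of TGF-beta went up where they were called: 4 of 7 rose in the positive fraction and 5 of 7 in input, and none fell. Tgfbi, a secreted matrix protein named for its induction by TGF-beta, rose from 884 to 6591 counts in the positive fraction (2.90 ± 0.19, SE) and from 187 to 491 in input (1.39 ± 0.20, SE), a larger effect in the positive fraction (difference 1.51 ± 0.27, SE, edgeR adjusted p = 0.00199). Cdkn1a, a cell cycle inhibitor that many stress signals induce, rose by 1.62 ± 0.25 and 1.82 ± 0.26 (SE). Id3, a regulator also induced by BMP signals, rose by 0.49 ± 0.13 and 0.57 ± 0.14 (SE). Several of these genes answer to inflammatory signals too. Neutrophil markers rose in the positive fraction as they did in input, 5 of 5 tested, with sums of 34.3 to 148 counts in Positive PBS and 323 to 970 in Positive LPS, and their part in these rises was not tested.

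Of the microglial identity genes known to depend on TGF-beta most were called lower. In the positive fraction 11 of 15 fell and 1 rose, with a median log2 change of -0.86, beside 14.9% of all genes called lower and 19.0% higher. In input 8 fell and 2 rose, with a median of -0.61, beside 5.26% and 7.16%. Slc2a5, a fructose transporter, fell by 4.93 (SE 0.33) in the positive fraction, from 2869 to 92.7 mean counts. Gpr34, a lysophospholipid receptor, fell by 3.47 (SE 0.33), from 3363 to 303, and P2ry12, the purinergic receptor of surveying microglia, fell by 2.47 (SE 0.20), from 9742 to 1757. P2ry13, its neighbour in the family, fell by 1.79 (SE 0.20), from 3402 to 985. In input the log2 fold changes were -2.49 for Slc2a5, -2.91 for Gpr34, -2.04 for P2ry12 and -1.24 for P2ry13. The effect differed between fractions for Slc2a5 (-2.45 ± 0.50, SE, edgeR adjusted p = 0.00535), and not detectably for the other 3. C1qa, the complement component, rose in both fractions (0.49 ± 0.13 and 0.68 ± 0.14, SE), and Pros1, a ligand of the Mertk receptor family, in input (1.04 ± 0.17, SE). These last 2 genes are named after their values were seen. Monocyte and border macrophage markers summed to between 4115 and 8344 in Positive PBS and between 2783 and 5362 in Positive LPS, with 1 of 7 called higher and 3 lower, and their part in these changes was not tested.

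In the related BMP and activin arm 5 of 18 genes fell and 1 rose in the positive fraction, beside 14.9% of all genes called lower and 19.0% higher. Inhba, the activin A subunit, fell by 1.23 (SE 0.22), Bmp6 by 1.01 (SE 0.14), the BMP antagonist Nog by 0.95 (SE 0.14) and Gdf11, an activin-like ligand, by 0.94 (SE 0.17). In input 3 of 18 fell and 2 rose, beside 5.26% of all genes called lower and 7.16% higher. The 3 that fell there were Inhba (-0.98), Bmp6 (-0.91) and Nog (-0.55). Gdf11 at -0.51 was not called in input (edgeR adjusted p = 0.0672) except with the replicate block (limma adjusted p = 0.0349), DESeq2 and some other alternatives. Without animals 506 and 507 the input calls of Inhba (edgeR adjusted p = 0.0692) and Nog (0.149) were lost, and that of Nog also without the Input LPS library of animal 266 (0.0692) or 507 (0.0595).

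**Figure D5:**
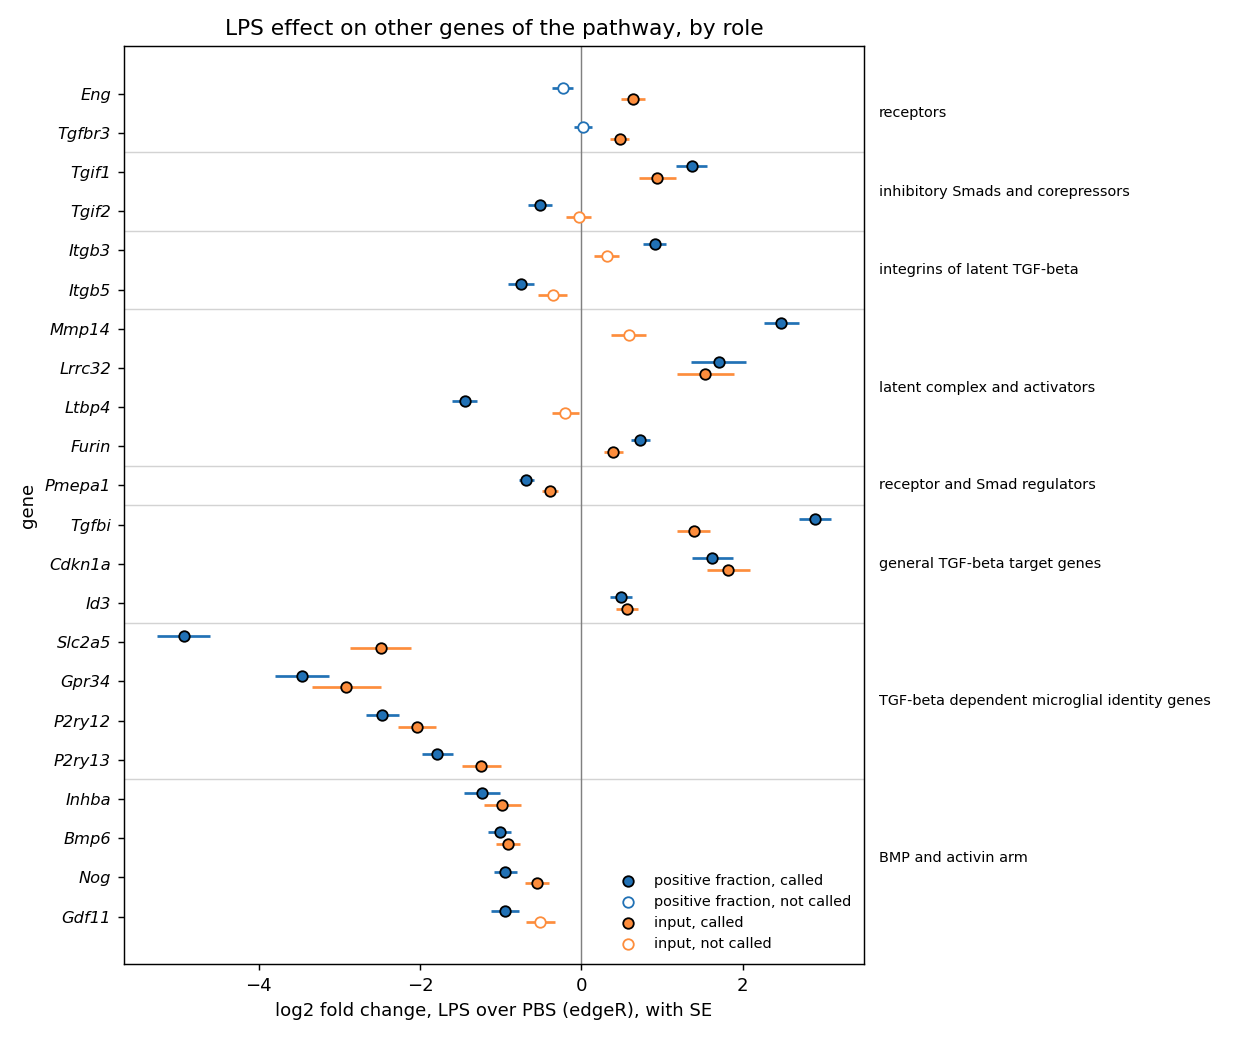
Log2 fold change of LPS over PBS (x axis, edgeR, bars are SE) for other genes of the pathway (y axis), grouped by role, in the positive fraction and in input, with filled points for called genes. In the positive fraction identity genes reach -4.93 (Slc2a5) and target genes 2.90 (Tgfbi).

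For each member the genes with the most similar profile over the 17 libraries were found among the 12598 tested genes whose mean normalised count was 100 or more, by Pearson r of log2 counts. The libraries share animals and the difference between fractions dominates these values, so they are descriptions. Among the closest to Tgfb1 were Fli1 and Cd68 (r = 0.999 and 0.998), the closest to Tgfbr1 were Ctsd, P2ry13 and Slco2b1 (r of 0.990 to 0.991), and to Tgfbr2 Nckap1l, Cd68 and Akna (r = 0.993 for each). Tgfb3 was closest to Folh1, Glis2 and Rhpn2 (highest r = 0.974) and Itgb8 to D10Bwg1379e, Papolg and Ralgps1 (0.970). The members with little difference between fractions had lower highest values: 0.948 for Smad2 with Faf1, then Sf3a3 and Cebpz, 0.931 for Smad3 with Ctcf, then Glce and Dip2b, 0.919 for Itgav with Manea, then Ppp1cb and Agpat3, 0.901 for Smad7 with Psd2, then Aldoc and Megf11, and 0.875 for Tgfb2 with Tmem231, then Rcn1 and Npy2r.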

How the data were processed

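RNA from input and positive TRAP fractions was sequenced with a directional library kit. The authors aligned reads by strand to mm10 in Strand NGS and deposited an estimated count per RefSeq gene model and library. They also deposited log2 values, scaled over all 18 libraries by DESeq per the submitters' processing notes, and of the nonzero estimated counts 81.7% were not whole. Counts were rounded. Library totals ran from 22968834 to 35123335, where 3 counts are a share of 8.54e-06% to 1.31e-05%. Such limits cover counting error only.

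Size factors were medians of ratios over 15766 genes (0.766 to 1.32). Genes with over 20 normalised counts in every library of at least 1 group were kept (14803). edgeR 4.0.16 (glmQLFit, glmQLFTest; R 4.3.3) fitted 1 mean per group, with 13 residual degrees of freedom, and 5 contrasts, and p-values were adjusted by Benjamini-Hochberg over all genes kept. The count model takes the place of the analysis of variance in the study's methods, with its thresholds, and a call needed an adjusted p under 0.05 and a log2 change over 0.32. The 95% intervals use the SE and 13 degrees of freedom. On simulated data for the LPS effect in the positive fraction, over 14803 genes, 67% of 100 genes changed 1.5-fold and 93% of 100 changed 2-fold were recovered. There were 8 false calls of unchanged genes. Far fewer genes were changed there than the 5008 called in the data, so these shares describe the simulation only.

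The same animal gave both fractions, per the labels. Deviations from group means correlated between an animal's libraries in all 8 pairs (r from 0.16 to 0.52). Fits with the animal as replicate block used edgeR for fraction contrasts and limma 3.58.1 (correlation 0.445) for LPS effects. PBS animals were 2 females and 2 males, LPS animals 4 females and 1 male. Alternatives were TMM, DESeq2 1.42.0, limma, 2 filters, sex, subsets of libraries, the deposited log2 values and each library left out. The members and lists were chosen with earlier results of these data known. The named genes were all members, and per role list up to 4 other genes called for LPS in either fraction whose mean normalised count was 50 or more, by size of the change in the positive fraction. Some genes that this rule or the search for similar profiles picked are not reported here. The exon lengths are from GENCODE vM21.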

Additional observations from a re-analysis of the deposited data

Results flagged for a closer look

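Smad2 was flagged in 2 groups, in each of which 1 library lay far from the others. The Input PBS library of animal 268 read 1147 normalised counts, and the other 3 lay between 1089 and 1094. In Positive LPS the library of animal 271 read 1538, and the other 4 lay between 1378 and 1389. The close agreement of the other libraries sets both flags, since the gaps are small beside the level. Over 40 groups of member values checked, chance gives about 1 flag in 20, and there were 2.

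Tgfbr2 was flagged because its LPS effect differed between fractions in the interaction test, by -0.53 on the log2 scale (edgeR adjusted p = 0.0099). It rose in input and was not called in the positive fraction.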

How the results depend on the processing

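Across alternatives 1325 of 1390 member fold changes kept their direction and their side of the threshold, 19 lost and 9 gained a call and 37 changed sign, all of the last uncalled values near 0. Of other named genes 1252 of 1288 kept both. Members called for LPS in the positive fraction numbered 3, and 1 to 3 with 1 library left out, and 1 without animals 506 and 507. For the difference between fractions the 1 called member became 0 without those animals, 2 with the replicate block, and 1 to 2 with 1 library left out. The block changed no other member call. The cause of these changes was not tested.

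All 18 libraries or the deposited log2 values shifted the median of all genes between fractions to -0.12 and -0.13 in PBS and to -0.11 and -0.14 in LPS animals, and in LPS animals 51.7% of calls were higher, against 43.2% and 41.1%. With these settings in turn the sign changed for Itgav (0.0068 and 0.025) and Itgb8 (0.033 and 0.060) for LPS in the positive fraction, Tgfb2 (-0.045 and -0.046) and Smad3 (-0.087 and -0.068) between fractions in PBS, and Smad7 between fractions in LPS (-0.051 and -0.064). Without animals 506 and 507 the LPS effect in the positive fraction was 0.070 for Itgav and 0.13 for Itgb8, and that of Tgif2 in input 0.015. Limma with a trend gave 0.010 for Itgb8 in the positive fraction, sex as a covariate gave -0.027 for Smad3 in input and -0.0095 for Tgfbr3 in the positive fraction, and the replicate block gave -0.034 for the difference of Itgav.

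Leaving out 1 library gave for the LPS effect in the positive fraction -0.14 to 0.081 for Itgav, -0.15 to 0.14 for Itgb8 and -0.022 to 0.065 for Tgfbr3. In input it gave -0.024 to 0.10 for Smad2, -0.081 to 0.093 for Smad3 and -0.086 to 0.026 for Tgif2. Between fractions it gave -0.041 to 0.13 for Smad3 and -0.096 to 0.023 for Smad7 in PBS and -0.014 to 0.15 for Smad7 in LPS animals, and for the difference -0.0037 to 0.12 for Smad2 and -0.058 to 0.16 for Itgav.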
